A study of Danio rerio with 24 samples.

Results

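Liver transcriptomes of male and female zebrafish that had not been swim-trained were compared. Fish were taken by 2 labels, sex and the absence of training, which selected 12 of the 24 livers of the study, 6 from females and 6 from males. All were adult fish of the ABTL strain, and no transgene or deletion is named in the sources used here. The normal-fed, non-trained group (NF-control) and the overfed, non-trained group (OF-control) each held 3 females and 3 males. OF-control fish received 9 mL of living shrimps each per day, while NF-control fish received less. Each library came from the liver of 1 fish, so the p-values describe the spread between these fish. Feed was a covariate in the main comparison, and the 12 trained fish entered only where they are named.

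The liver of egg-laying vertebrates differs between the sexes chiefly through vitellogenesis. Estradiol from the ovary binds estrogen receptors in hepatocytes and switches on the vitellogenin genes, whose large lipid-carrying phosphoglycoproteins are secreted into the blood and taken up by growing oocytes as yolk. Secreting so much protein draws on ribosomes, on the translocon that feeds new chains into the endoplasmic reticulum (ER), on glycosylation enzymes and on the transport vesicles that lead to the Golgi. The liver also makes lipoproteins, clotting factors and complement, and clears steroids, drugs and bile acids.

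Library totals lay between 19315642 and 21158766 estimated counts, but their composition differed. The 8 vitellogenin genes took 66.7 ± 10.7% (SD, n = 6) of all counts in females, with a lowest share of 45.8% in NF-control female 1 and a highest of 74.5%. In males the share was 0.0655 ± 0.0506% (n = 6), from 0.0202% to 0.159%, the highest being NF-control male 6. The difference was -66.6 percentage points (exact two-sided permutation of sex within feed, p = 0.005, the smallest that 400 arrangements can give, 0.0075 after adjustment over 3 such values). Outside vitellogenin, female libraries kept 4950351 to 11175803 counts and male libraries 20672343 to 21154488, so other genes were measured with more counts in males.

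**Figure D1:**
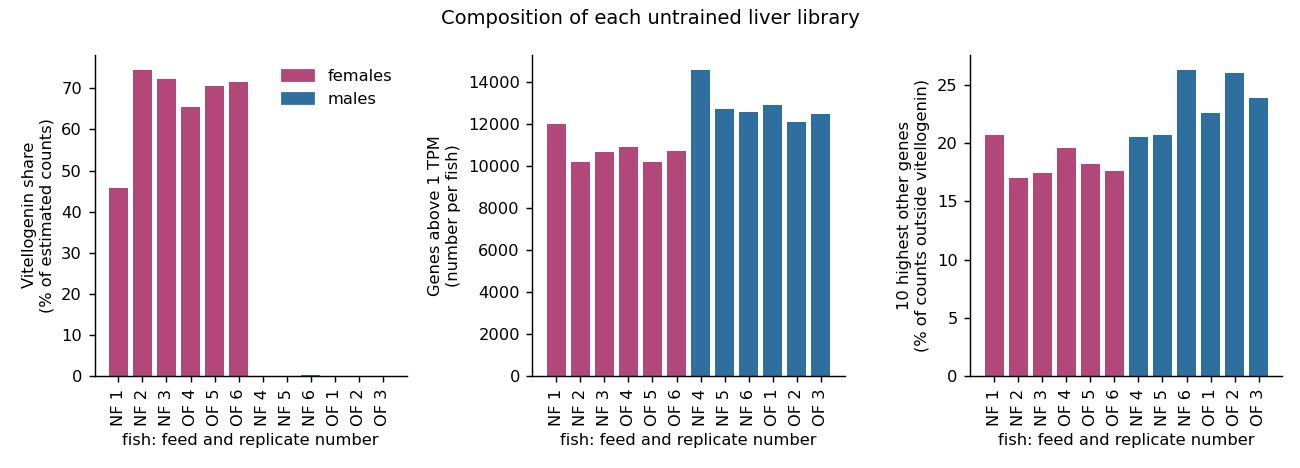
Bars give, for each of the 12 untrained fish (NF and OF with the replicate number), the vitellogenin share of estimated counts in percent, the number of genes above 1 TPM, and the percent of counts outside vitellogenin held by the 10 highest other genes; females are purple and males blue. Females reach 45.8% to 74.5% in the first panel where male bars are barely visible, and NF-control male 4 has the tallest bar in the second.

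In females 10781.7 ± 674 genes exceeded 1 TPM (transcript abundance scaled for length and library total), against 12891.7 ± 869 in males, and the sexes did not overlap (exact permutation p = 0.005, adjusted 0.0075). When TPM was rescaled without vitellogenin the difference shrank from 2110 to 629 genes and no longer passed the test (exact p = 0.08). The 10 highest other genes held 18.4 ± 1.46% of the remaining counts in females and 23.3 ± 2.53% in males (exact permutation p = 0.015, adjusted 0.015).

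For this reason gene values are given as CPM, counts scaled to a common library size with trimmed mean (TMM) factors, which set libraries by the bulk of genes rather than by their totals. CPM of different fish therefore do not sum to the same total. Levels of different genes are compared only in TPM.

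3 fish stood apart from their group. NF-control male 4 had 14580 genes above 1 TPM against at most 12888 in the other males, and its summed marker levels were above those of the other males for leukocytes (345 against 73.6 to 179 CPM), for endothelium and stellate cells (300 against 126 to 210 CPM) and for intestine and muscle (1699.8 against 341 to 1078.4 CPM). NF-control female 1 had the lowest vitellogenin share. NF-control male 6 lay toward the female level for several genes described below. In whole liver, fewer cells of a type and less RNA per cell cannot be told apart.

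Hepatocyte markers were abundant in both sexes, with a summed level of 32575 to 106970 CPM in females and 79321.5 to 156167.8 CPM in males. Of 35 ovary and oocyte markers 9 were at 0 in all 12 fish, and of 25 testis markers 5 were. Their summed levels were 3.3 to 10.8 CPM in females and 2.48 to 6.15 CPM in males for ovary, and 7.03 to 15.5 CPM and 9.9 to 13.4 CPM for testis. Exocrine pancreas markers summed to 389 to 756 CPM in females and 112 to 422 CPM in males. Of 29 tested 1 was called, beside 29.2% of all genes. It was the amylase gene amy2al1, lower in males (log2 difference -2.97 ± 0.46, SE, edgeR adjusted p = 0.00059). This gene alone measured 155 to 585 CPM in females and 17.8 to 223 CPM in males. In the 12 trained fish 9 of 28 pancreas markers were higher and 1 lower in males, where 27.7% of all genes were called. The part of pancreas tissue in the other results was not tested.

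Of 16480 genes tested, 4812 (29.2%) differed between the sexes at an adjusted p under 0.05 (edgeR quasi-likelihood test, Benjamini-Hochberg), with 2270 (13.8%) called higher in males and 2542 (15.4%) called lower. More than 2-fold apart were 3016 of the called genes, 221 were more than 8-fold higher and 166 more than 8-fold lower in males. Male and female values did not overlap for 2271 genes (13.8%), of which 2242 were called. Sex accounted for a share of 0.92 of the first principal component, which held 44.2% of the variance. The balance of the directions depends on scaling: with library size alone 13979 genes were higher and 307 lower in males, and limma on log2(TPM + 1) gave 8037 and 1012. The median log2 difference of all genes was 0.11 with TMM and 1.62 with library size alone, so directions below are relative to the bulk of genes.

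**Figure D2:**
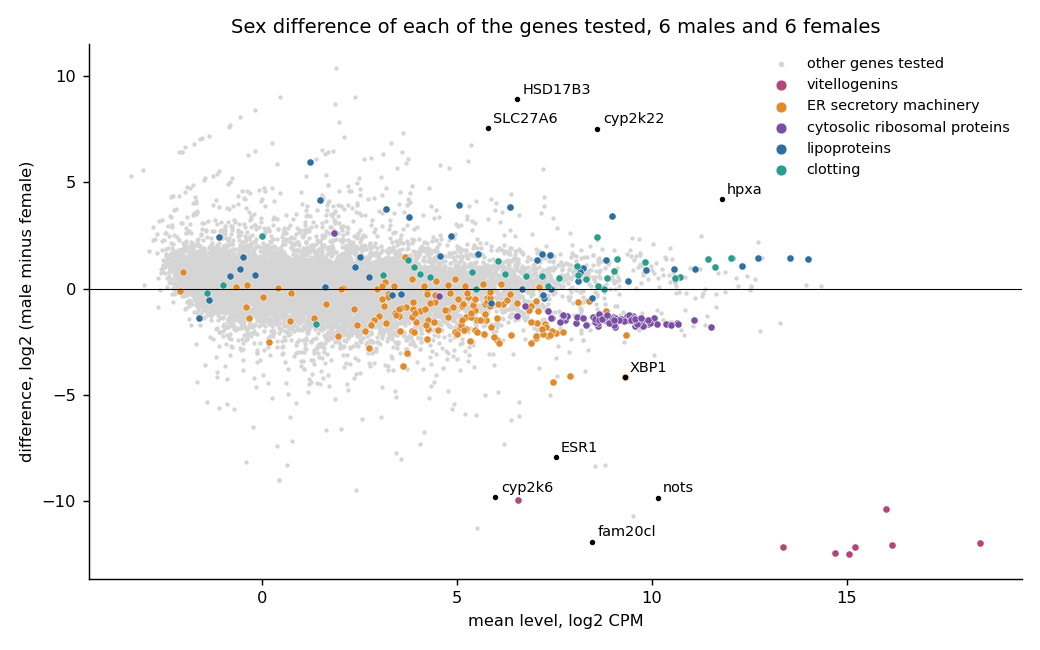
Each point is 1 tested gene, with its mean level in log2 CPM on the horizontal axis and its log2 difference, male minus female, on the vertical axis; 5 gene lists are coloured, and genes that the text describes are black and named. Of the 8 vitellogenins 7 lie far from all others at the lower right, while vtg8 has a lower level, and the ribosomal protein genes form a narrow band below 0.

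Vitellogenins, the yolk precursors, differed by a wide margin. All 8 were lower in males without overlap, beside 15.4% of all genes called lower and 13.8% without overlap. Their median log2 difference was -12.09. vtg1 (ENSDARG00000092233) measured 312931.5 CPM in NF-control female 1 and 669770.1 to 911166.9 CPM in the other 5 females. In males it ranged from 29.4 to 628 CPM, the highest again NF-control male 6. No male came near any female (log2 difference -11.97 ± 0.99, adjusted p = 9.2e-06). Per length, vtg1 averaged 189843 TPM in females, above vtg4 at 44207.2 TPM and vtg5 at 36936.6 TPM. The 8 genes belong to the same family, and the split of reads between them was not tested. vtg8 was the lowest at 51.2 TPM, yet it too was lower in males (-9.95 ± 0.41, adjusted p = 4.6e-08).

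Other genes that were nearly silent in males accompanied the yolk precursors. fam20cl, a member of the family of secretory pathway kinases, measured 576 to 835 CPM in females and 0.0562 to 0.613 CPM in males (-11.89 ± 0.57, adjusted p = 9.9e-08). eevs, a sugar phosphate cyclase gene used in making the sunscreen compound gadusol, measured 16.8 to 221 CPM in females and 0 to 0.0699 CPM in males (-11.25 ± 0.87, adjusted p = 5.9e-06). 4 further genes were chosen after their values were seen. nots, an aspartic protease of the cathepsin family, fell from 2280.6 ± 735 CPM in females to 2.49 ± 0.48 CPM in males. rcn3, an ER calcium-binding protein, fell from 891 ± 238 to 2.92 ± 1.8 CPM. rtn1a, a reticulon that shapes ER membranes, fell from 750 ± 508 to 2.3 ± 0.384 CPM. BHLHA15, a transcription factor of secretory cells, fell from 8.03 ± 1.55 to 0.0783 ± 0.0612 CPM. Their adjusted p-values lay between 3.2e-08 and 6.3e-06.

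Among the receptors of sex steroids, ESR1 (ENSDARG00000004111), the estrogen receptor that drives vitellogenin in fish liver, showed the largest difference. It measured 158, 374 and 352 CPM in the NF-control females and between 256 and 587 CPM in the OF-control females. In males it measured 1.05, 1.16 and 1.41 CPM under normal feed and 1.6, 1.58 and 2.31 CPM under overfeeding. The groups were far apart under both feeds (-7.92 ± 0.34, adjusted p = 5.5e-08). Of the 2 genes annotated ESR2, ENSDARG00000034181 was lower in males (-1.47 ± 0.32, adjusted p = 0.0046), with overlapping values and a log2 difference of 0.15 under library size alone. For ENSDARG00000016454 the values were 16.4 ± 7.27 CPM in females and 10.6 ± 1.96 CPM in males (adjusted p = 0.11). It passed without NF-control female 2 (-0.82, adjusted p = 0.038) and without OF-control female 6 (-0.85, adjusted p = 0.025), and its sign turned under library size alone (0.85) and on TPM (0.12 with a pseudocount of 1). GPER1, a membrane estrogen receptor, gave -0.99 ± 0.35 (adjusted p = 0.0519) and passed without NF-control female 1 (0.026) or NF-control female 2 (0.045). Under library size alone it turned to 0.59, where the median of all genes was 1.62.

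Of 38 tested genes of the sex steroid axis 7 were higher and 12 lower in males, beside 13.8% and 15.4% of all genes. HSD17B3 (ENSDARG00000023287), which in mammals converts androstenedione to testosterone, measured 0 to 1.08 CPM in females. In males it measured 109, 212 and 6.9 CPM under normal feed and 246, 258 and 294 CPM under overfeeding, the low value being NF-control male 6. No male fell to the female range (8.92 ± 1.04, adjusted p = 7.8e-05). HSD11B2, which inactivates cortisol and makes 11-oxygenated androgens in fish, rose from 15.9 ± 15.8 to 178 ± 88.7 CPM (3.45 ± 0.60, adjusted p = 0.0012). HSD3B7, a bile acid synthesis enzyme of the steroid dehydrogenase family, rose from 21.6 ± 11.9 to 335 ± 370 CPM (3.33 ± 0.79, adjusted p = 0.0076). Its male values were 108, 66.9 and 55.1 CPM under normal feed and 694, 176 and 909 CPM under overfeeding. The log2 difference was 1.5 in NF-control fish alone (adjusted p = 0.12) and 5.11 in OF-control fish alone (adjusted p = 0.0047). NR0B1, an orphan receptor that represses steroidogenic genes, was higher in males (2.07 ± 0.37, adjusted p = 0.0014). shbg, the blood carrier of sex steroids, measured 252 ± 128 and 446 ± 160 CPM (adjusted p = 0.067) and passed without NF-control female 1 (1.06, adjusted p = 0.026) or NF-control male 4 (1.03, adjusted p = 0.044).

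**Figure D3:**
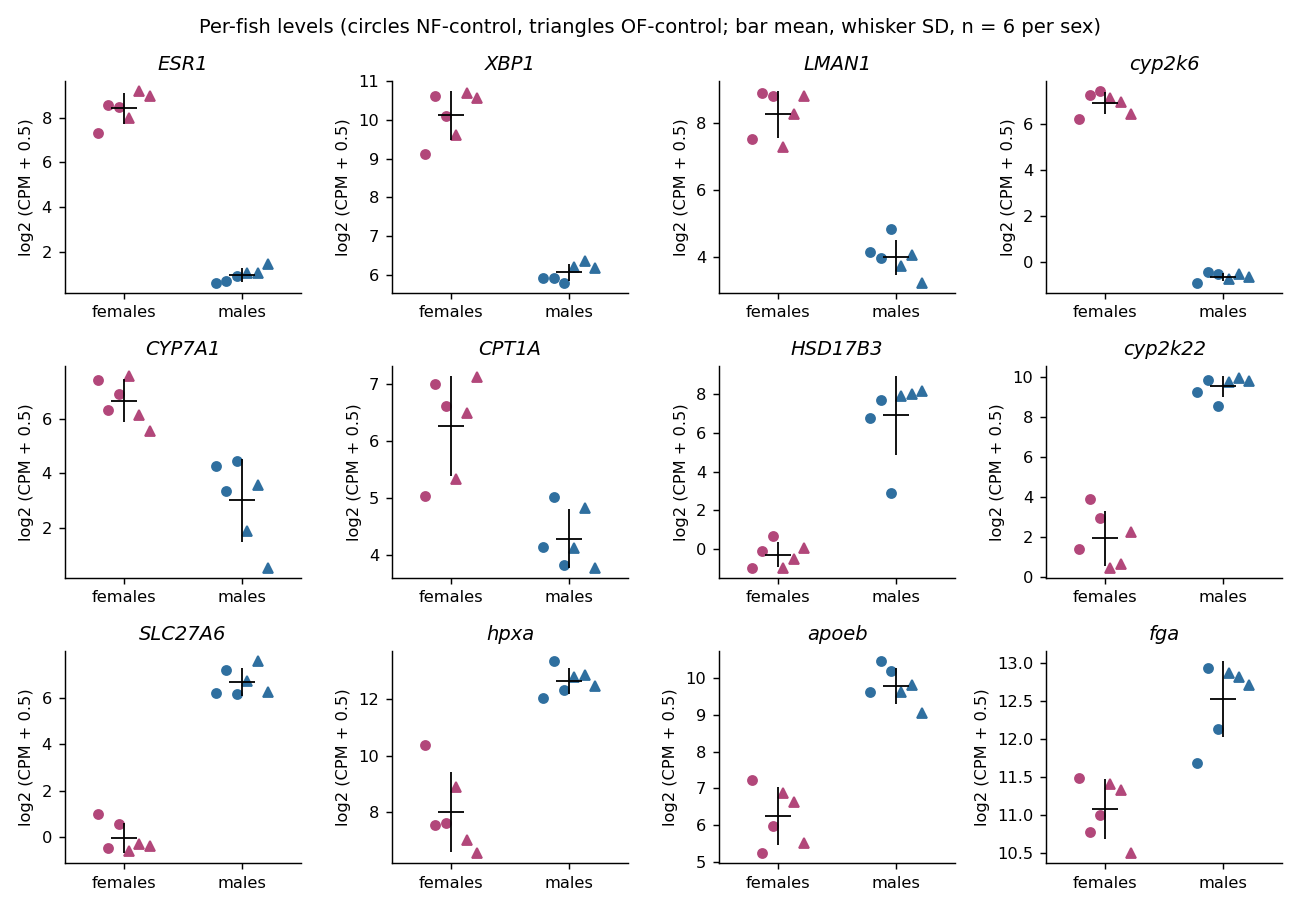
Log2 (CPM + 0.5) of 12 genes in each untrained fish, circles for NF-control and triangles for OF-control, females purple and males blue; bars are means and whiskers SD (n = 6 per sex). ESR1, XBP1, LMAN1, cyp2k6, CYP7A1 and CPT1A are higher in females and HSD17B3, cyp2k22, SLC27A6, hpxa, apoeb and fga in males, with no overlap; each panel has its own axis range.

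Genes of the secretory pathway were lower in males as a group. Of 150 tested genes of the ER secretory machinery 102 were lower and 1 higher, beside 15.4% and 13.8% of all genes. The median log2 difference was -1.13. Library size alone turned that median to 0.41, still below the 1.62 of all genes on that scale. All 23 translocation genes were lower (median -1.80), as were 23 of 29 N-glycosylation genes, 22 of 33 chaperones and folding enzymes, 15 of 26 genes of the unfolded protein response and degradation, and 19 of 39 transport vesicle genes. XBP1 (ENSDARG00000035622), the transcription factor that enlarges the secretory apparatus, measured 560 to 1667.1 CPM in females and 54.8 to 82.2 CPM in males (-4.16 ± 0.28, adjusted p = 2.1e-06). LMAN1 and MCFD2, which together form the cargo receptor that carries clotting factors V and VIII out of the ER in mammals, were both lower in males. LMAN1 measured 157 to 476 CPM in females and 8.87 to 28 CPM in males (-4.40 ± 0.36, adjusted p = 8e-06). MCFD2 measured 450 ± 108 CPM in females and 26 ± 5.3 CPM in males (-4.10 ± 0.23, adjusted p = 3.5e-07).

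The translocon subunits SEC61G (-2.0 ± 0.2, adjusted p = 2.9e-05) and SEC61B (-1.80 ± 0.20, adjusted p = 5.6e-05) were lower in males without overlap. Chosen after their values were seen, SEC61A1, the pore subunit, measured 1066.1 ± 205 CPM in females and 239 ± 56 CPM in males. HSPA5, the main ER chaperone, measured 215 ± 83.8 and 46 ± 14.4 CPM, and ern1, the ER stress sensor that splices XBP1 mRNA, 36.2 ± 17.6 and 9.51 ± 1.33 CPM, all with adjusted p-values under 0.001. The single member higher in males was creb3l3b (1.47 ± 0.29, adjusted p = 0.0027), of the family of liver ER-anchored transcription factors, also picked after the values were seen.

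Cytosolic ribosomal protein genes moved almost as one. Of 78 tested, 76 were lower and 1 higher in males, beside 15.4% and 13.8% of all genes, with a median of -1.46. For 77 the sexes did not overlap, beside 13.8% of all genes. Library size alone gave a median of 0.08, where that of all genes was 1.62. RPLP0, of the ribosomal stalk, measured 3303.1 to 5247.9 CPM in females and 1015.1 to 1602.7 CPM in males (-1.81 ± 0.18, adjusted p = 2.8e-05). RPS2 of the small subunit was lower as well (-1.46 ± 0.16, adjusted p = 5.2e-05), though it stood at 0.10 under library size alone.

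Of 19 aminoacyl-tRNA synthetase genes, which load tRNAs with amino acids, 15 were lower and none higher in males, beside 15.4% and 13.8% of all genes. The median was -1.15, and 0.49 under library size alone, where that of all genes was 1.62. WARS1 was lower by TMM (-1.72 ± 0.32, adjusted p = 0.0018), and so were VARS1 (-1.54 ± 0.33), SARS1 (-1.39 ± 0.21) and AARS1 (-1.19 ± 0.15), while library size alone turned the last 3 to 0.09, 0.16 and 0.34. The elongation factors eef1a1l1 (15234.4 ± 2039.8 and 4994 ± 772 CPM) and eef2b (11230.1 ± 1898.5 and 2827.8 ± 534 CPM), chosen after their values were seen, differed in the same direction.

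**Figure D4:**
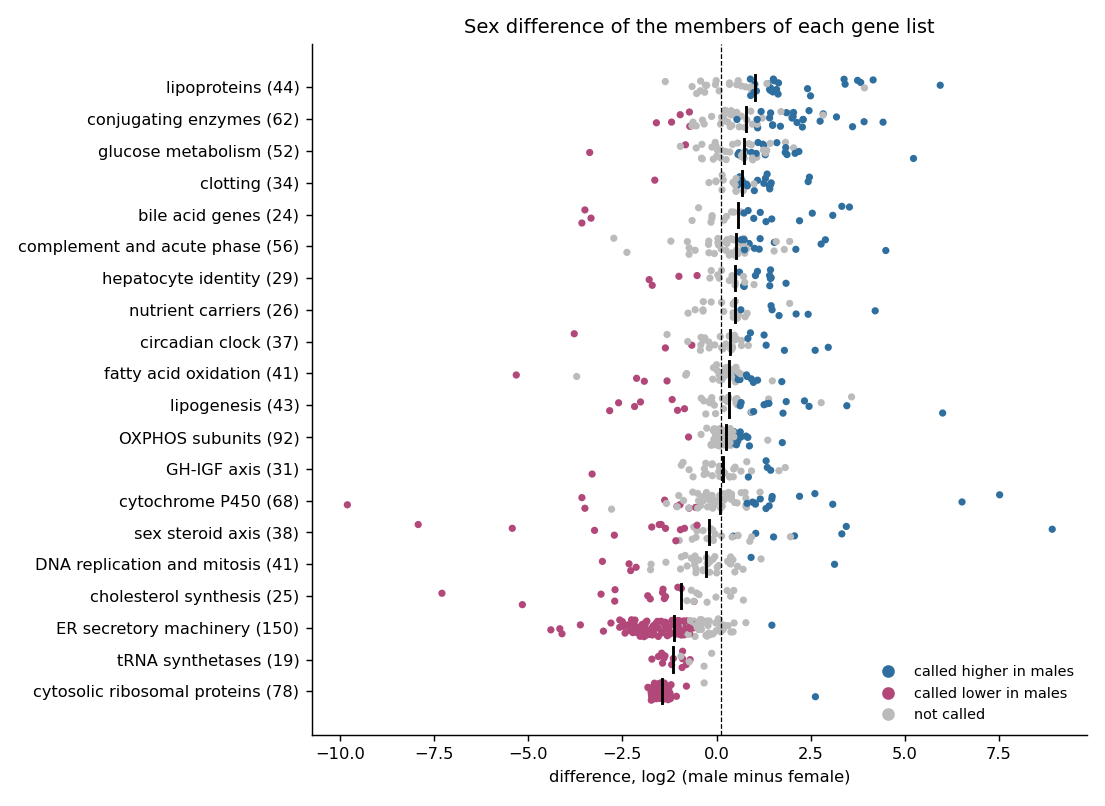
Each point is 1 tested gene of a list, with the number tested in brackets, placed by its log2 difference, male minus female, on the TMM scale; blue points were called higher and purple points lower in males, grey points were not called, black bars are list medians and the dashed line is the median of all genes (0.11). Ribosomal, tRNA synthetase, ER and cholesterol synthesis genes lie mostly left of that line and lipoprotein, conjugating enzyme, glucose and clotting genes mostly right. Under library size alone the medians of the first 4 lists named turn positive, where the median of all genes is 1.62.

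Male livers showed more lipoprotein transcripts. Of 44 tested genes 23 were higher and none lower (median 1.01), beside 13.8% and 15.4% of all genes. Among 21 apolipoproteins 14 were higher. Without NF-control male 4, 19 of the 44 genes were higher. apoa2, a protein of high-density lipoprotein, rose from 6503.3 ± 2651 CPM in females to 17633.6 ± 4270.2 CPM in males (1.44 ± 0.31, adjusted p = 0.0041). apoa1b, the main protein of the same particles, differed by a like amount (1.41 ± 0.32, adjusted p = 0.0062) with overlapping ranges. apoc1, which is carried on several lipoproteins, rose from 3654 ± 1841.8 to 9909.7 ± 1927 CPM (1.43 ± 0.31, adjusted p = 0.0043). apof, an inhibitor of lipid transfer in human plasma, measured 3.84 to 17.7 CPM in females and 46.4 to 215 CPM in males (3.83 ± 0.38, adjusted p = 3.1e-05). apoa1a gave 0.91 ± 0.28 (adjusted p = 0.029) but lost the call without any 1 of 6 fish, among them NF-control female 2 (0.77, adjusted p = 0.082). PLTP, a phospholipid transfer protein, was called (4.16 ± 1.04, adjusted p = 0.01) with 1 male, NF-control male 5, at 25.3 CPM and the others at 0.307 to 1.79 CPM. Chosen after its values were seen, apoeb, a ligand of lipoprotein receptors, measured 37.2 to 149 CPM in females and 531 to 1416.4 CPM in males.

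Of 26 carriers of nutrients and metals 7 (26.9%) were higher and none lower in males, beside 13.8% and 15.4% of all genes. hpxa, the heme-binding hemopexin, measured 1335.7, 182 and 193 CPM in NF-control females and 471, 127 and 90.9 CPM in OF-control females. In males it ranged from 4193.9 to 10618.4 CPM (4.22 ± 0.65, adjusted p = 0.00055). serpina7, named for thyroxine-binding globulin, was higher in males (2.44 ± 0.29, adjusted p = 9.1e-05), and so was the retinol carrier RBP2 (1.66 ± 0.35, adjusted p = 0.0038). tfa, transferrin, was high in both sexes and did not pass (0.14 ± 0.46, adjusted p = 0.85).

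Clotting genes were higher in males for 18 of 34 tested (52.9%) and lower for 1 (2.94%), beside 13.8% and 15.4% of all genes. Their median was 0.67. The 18 include serpina7, which is also counted among the nutrient carriers above. The lower gene was vwf (-1.64 ± 0.40, adjusted p = 0.0089), a gene of endothelium that is also on that marker list. The 3 fibrinogen chains rose together. fga measured 1442.1 to 2869.3 CPM in females and 3300.5 to 7882.3 CPM in males (1.45 ± 0.25, adjusted p = 0.0011). FGB gave 1.43 ± 0.28 (adjusted p = 0.0024) and FGG 1.41 ± 0.24 (adjusted p = 0.0011). f13b, the carrier subunit of factor XIII, was called (2.47 ± 0.79, adjusted p = 0.033) but not without any 1 of 7 fish, as without NF-control female 2 (2.22, adjusted p = 0.086). Of 56 complement and acute phase genes 14 (25%) were higher and none lower (median 0.52), beside 13.8% and 15.4% of all genes. Several of these calls were narrow: leap2, an antimicrobial peptide gene (2.78 ± 0.97, adjusted p = 0.0482), was lost without any 1 of 10 fish, for example OF-control female 5 (2.40, adjusted p = 0.091). ahsg1 (0.73 ± 0.21, adjusted p = 0.018) was lost without NF-control female 2 (0.63, adjusted p = 0.062), NF-control female 3 (0.64, 0.062) or OF-control female 6 (0.63, 0.053), and cfhl5 (2.11 ± 0.61, adjusted p = 0.021) without NF-control female 3 (1.98, 0.053). crp3 and fetub, both abundant, did not pass (adjusted p = 0.45 and 0.91).

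Genes for handling drugs and steroids differed in both directions. Of 68 cytochrome P450 genes 14 were higher and 8 lower in males, shares of 20.6% and 11.8% beside 13.8% and 15.4% of all genes. Within the cyp2k family members went opposite ways. cyp2k6 measured 74.9, 154 and 177 CPM in NF-control females and 143, 127 and 87.8 CPM in OF-control females, but 0.0233 to 0.221 CPM in males (-9.81 ± 0.46, adjusted p = 9.9e-08). cyp2k22 measured 0.846 to 14.4 CPM in females and 376 to 991 CPM in males, lowest in NF-control male 6 (7.52 ± 0.75, adjusted p = 3e-05). cyp2k31, at 0 to 0.197 CPM in females and 3.16 to 9.13 CPM in males, followed cyp2k22 (6.52 ± 0.52, adjusted p = 8e-06). These genes are close relatives, so the split of reads between them is uncertain. cyp3a65, of the family that metabolises drugs and steroids, was also higher in males (2.61 ± 0.43, adjusted p = 0.00082).

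Among conjugating enzymes, which make lipophilic compounds water-soluble, 24 of 62 (38.7%) were higher and 5 (8.06%) lower in males (median 0.78). Without NF-control male 4 the numbers were 20 and 3. Of all genes 13.8% were called higher and 15.4% lower. UDP-glucuronosyltransferases were higher for 13 of 29 and lower for 3, with ugt5a2 (4.42 ± 0.63, adjusted p = 0.00034), ugt5a1 (3.92 ± 0.64, adjusted p = 0.00075) and ugt1b4 (3.61 ± 0.62, adjusted p = 0.001) leading. Sulfotransferases were higher for 6 of 13 and lower for none, with sult1st4 at 6.94 ± 2.42 and 27.8 ± 10.4 CPM (2.01 ± 0.30, adjusted p = 0.00048). gstt1a, a glutathione transferase, was called (1.19 ± 0.36, adjusted p = 0.026) but not without any 1 of 6 fish, as without OF-control female 5 (1.08, adjusted p = 0.069).

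Bile acid genes were higher in males for 11 of 24 (45.8%) and lower for 3 (12.5%). Of all genes 13.8% were higher and 15.4% lower, so the lower bile acid genes were no larger a share. The 3 lower ones included the rate-limiting enzyme of bile acid synthesis. CYP7A1 measured 170, 79.3 and 121 CPM in NF-control females and 190, 70.1 and 46.5 CPM in OF-control females. In males it measured 0.952 to 21.7 CPM, below all females (-3.58 ± 0.61, adjusted p = 0.001). FGF19, a hormone that represses CYP7A1 in mammals, was lower in males too (-3.33 ± 0.86, adjusted p = 0.012), but with overlapping values. Its log2 difference was -1.91 in NF-control fish alone (adjusted p = 0.23) and -5.47 in OF-control fish alone (adjusted p = 0.0059). The third was cyp39a1, an oxysterol hydroxylase (-3.50 ± 0.96, adjusted p = 0.016), whose call was lost without OF-control female 4 (-2.46, adjusted p = 0.056). Higher in males were slc27a2a (0.99 ± 0.27, adjusted p = 0.016) and slco1d1 (0.84 ± 0.24, adjusted p = 0.018), the latter lost without NF-control female 2 (0.73, adjusted p = 0.051) or OF-control female 5 (0.78, adjusted p = 0.053).

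Cholesterol synthesis genes were lower in males for 14 of 25 and higher for none, beside 15.4% and 13.8% of all genes. Male and female values overlapped for all 25, while they did not overlap for 13.8% of all genes. The median was -0.93, and 0.61 under library size alone, where that of all genes was 1.62. SQLE (-5.16 ± 0.94, adjusted p = 0.0016) and EBP (-3.07 ± 0.54, adjusted p = 0.0013), which act later in the pathway, were lower at low levels. srebf2, the transcription factor of the pathway, chosen after its values were seen, was lower (-1.42 ± 0.29, adjusted p = 0.0034) but at 0.18 under library size alone.

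Of 43 lipogenesis genes 13 (30.2%) were higher and 7 (16.3%) lower in males, the latter near the 15.4% of all genes. ME1, which supplies NADPH for fatty acid synthesis, measured 0.174 to 2.54 CPM in females and 9.63 to 169 CPM in males (6.01 ± 0.65, adjusted p = 4.9e-05). ELOVL5, an elongase of polyunsaturated fatty acids, was lower in males (-2.60 ± 0.39, adjusted p = 0.00045), and so was GPAM, which starts glycerolipid synthesis (-2.84 ± 0.43, adjusted p = 0.00045). DGAT2, which makes triglyceride, gave 1.39 ± 0.44 (adjusted p = 0.031) and lost its call without any 1 of 6 fish, as without OF-control female 5 (1.16, adjusted p = 0.081). Of 41 fatty acid oxidation genes 9 (22%) were higher and 4 (9.76%) lower, beside 13.8% and 15.4% of all genes. The log2 difference was above 0 for 32 of the 41 (median 0.34, where that of all genes was 0.11). ACAT1, among the higher ones, measured 27.7 to 62.2 CPM in females and 71.5 to 327 CPM in males (1.73 ± 0.35, adjusted p = 0.0031). CPT1A and acsl1b were among the 4 lower ones. CPT1A, the gate of mitochondrial fatty acid uptake, measured 32.2 to 139 CPM in females and 13.2 to 31.7 CPM in males (-2.12 ± 0.39, adjusted p = 0.0017). acsl1b, an acyl-CoA synthetase, measured 54.8 to 367 CPM in females and 1.55 to 2.37 CPM in 5 males, while NF-control male 4 stood at 27.1 CPM (-5.32 ± 0.88, adjusted p = 0.00085, and -6.47 without that fish).

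Outside these lists, SLC27A6, a fatty acid transporter, measured 0.169 to 1.52 CPM in females and 70.8 to 190 CPM in males (7.56 ± 0.58, adjusted p = 5.7e-06). aqp7, a glycerol channel, measured 0.22 to 1.22 CPM in females and 55.6 to 134 CPM in 5 males, with NF-control male 6 at 8.16 CPM (6.74 ± 0.60, adjusted p = 1.5e-05). trim35-9 (7.13 ± 0.39), TPGS2 (6.50 ± 0.74), DIPK2A (6.42 ± 0.63) and si:dkey-285b23.4 (6.17 ± 0.66) were nearly absent from females. zgc:123278 had 2 counts in all females and 1752 in all males, a ratio of 289 after scaling (exact 95% interval 80 to 2392.1, counting error only). wu:fj16a03, among the most abundant genes higher in males (0.77 ± 0.21, adjusted p = 0.017), lost its call without OF-control female 5 (0.68, adjusted p = 0.059) or OF-control female 6 (0.63, adjusted p = 0.054).

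Glucose metabolism genes were higher in males for 17 of 52 and lower for 2 (median 0.72), beside 13.8% and 15.4% of all genes. fbp1b, of gluconeogenesis, measured 197 to 709 CPM in females and 1182.6 to 2182.3 CPM in males (2.09 ± 0.34, adjusted p = 0.00074). GAPDH, of glycolysis, differed less (0.93 ± 0.22, adjusted p = 0.0079).

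Of 29 hepatocyte identity genes 11 (37.9%) were higher and 4 (13.8%) lower in males, beside 13.8% and 15.4% of all genes. The 11 include apoa1b, apoa2 and the fibrinogen chains fga, FGB and FGG, already counted above as lipoprotein or clotting genes. PROX1, a hepatocyte transcription factor, was higher in males (1.85 ± 0.28, adjusted p = 0.00047), while CEBPA (-1.79 ± 0.51, adjusted p = 0.019) and foxa3 (-1.71 ± 0.26, adjusted p = 0.00044) were lower. fabp10a, the liver fatty acid binding protein of fish, was barely called (0.61 ± 0.21, adjusted p = 0.0495) and failed without any 1 of 10 fish, as without NF-control female 3 (0.45, adjusted p = 0.15). Of 11 intestine and muscle markers 5 were higher and none lower, and 4 without NF-control male 4. FABP1, a fatty acid binding protein, reached 121 CPM in that fish, and its call (7.34 ± 1.73, adjusted p = 0.0073) was lost without it (3.99, adjusted p = 0.053). The smooth muscle actin acta2, at 89.7 CPM in the same fish and 2.68 to 9.55 CPM in the other males, went from 2.67 ± 0.83 (adjusted p = 0.03) to 1.21 (adjusted p = 0.1) without it, and its call was also lost without any 1 of 6 other fish, such as NF-control female 3 (2.40, adjusted p = 0.078). FABP2 did not pass (4.04 ± 1.66, adjusted p = 0.085), with NF-control male 4 at 720 CPM and the other males at 0.215 to 16.4 CPM. It passed without NF-control male 6 (4.23, adjusted p = 0.041) or OF-control female 4 (5.0, adjusted p = 0.047).

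The sex difference was then asked of each feed. No gene passed a test of the sex by feed interaction in edgeR or voom, 826 of 16480 (5.01%) had an unadjusted p under 0.05, and DESeq2 called 23. The interaction with training gave no call among 17432 genes in edgeR or voom, with 901 (5.17%) at an unadjusted p under 0.05 and 11 by DESeq2.

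In the 12 trained fish, other animals under the same contrast, 4534 of 16361 genes (27.7%) were called, 2407 higher and 2127 lower in males. Of 4722 untrained calls tested there, 4614 (97.7%) had the same sign, against 80.5% of all genes tested in both. 3082 were called in the same direction, which is 65.3% of the untrained and 69.0% of the trained calls, and none in opposite directions. ESR1 gave -7.62 and HSD17B3 10.48 in trained fish, XBP1 -4.12, cyp2k6 -11.42 and hpxa 4.45.

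Each untrained fish was also placed between the sexes by genes chosen in the trained fish alone, those over 8-fold apart there, with 0 for the mean trained female and 1 for the mean trained male. Over 186 genes higher in trained males, untrained females lay at -0.04 to 0.14. Untrained males lay at 0.66 to 1.07, the lowest being NF-control male 6. Over 146 genes lower in trained males, females lay at -0.13 to 0.21, the highest being NF-control female 1, and males at 0.83 to 1.02. No fish lay closer to the other sex.

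**Figure D5:**
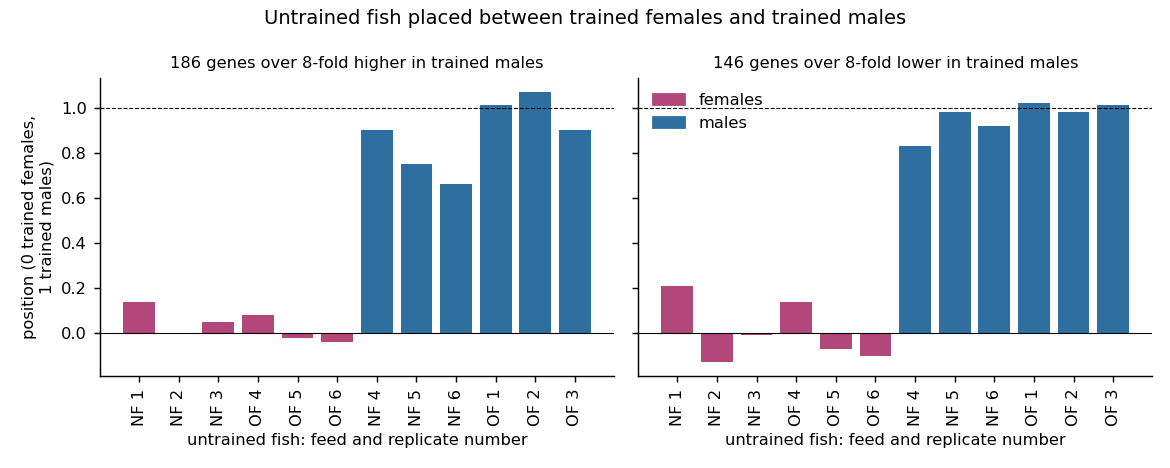
Bars give the position of each untrained fish between the mean trained female (0) and the mean trained male (1, dashed line), over 186 genes higher and 146 genes lower in trained males; females are purple and males blue. Untrained females lie between -0.13 and 0.21 and untrained males between 0.66 and 1.07.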

How the data were processed

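Livers were taken after an overnight fast, RNA was isolated with the RNeasy Mini Kit and sequenced on the BGISEQ-500. The authors removed low-quality reads with Trim Galore 0.6.4 and quantified reads with kallisto against GRCz11; the step from transcripts to genes is not given in the sources used here. The deposited estimated counts were rounded to whole numbers, and the deposited TPM were used for levels. Depth is given in the report; intervals cover counting error only.

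Counts were scaled by TMM and tested with edgeR 4.0.16 (quasi-likelihood, sex plus feed) in R 4.3.3, after filterByExpr with a minimum count of 10, at a Benjamini-Hochberg adjusted p of 0.05. The study itself worked with voom. limma 3.58.1 and DESeq2 1.42.0 were alternatives. The fits were also run on simulated data with far fewer changed genes than were called here, in equal numbers up and down. That simulation cannot show how TMM behaves when whole abundant classes of genes differ in 1 direction. Alternatives were the scaling, filter, covariate, tool, feed, replicate block and each fish left out, plus removal of a transcript length trend, chosen after seeing the data.

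The comparison and the 30 gene lists were chosen with earlier results of these data known. Some genes stand on several lists and are counted in each. The naming rule took the 10 largest changes in each direction (at least 10 TPM, no overlap), the 5 most abundant called genes in each direction, 4 members of each list by level and 4 by change, and members of lists of at most 20. It gave 321 genes, of which 123 were taken up here with values known (the closing section compares how steady their calls were). A further 23 were chosen after their values were seen. Some genes are not reported here. Replicate numbers are used in the text only to name fish.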

Additional observations from a re-analysis of the deposited data

Results flagged for a closer look

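Values of 298 groups of 6 fish were screened for 1 fish far from the other 5, by its gap to the nearest of them relative to the whole range. Gene levels were screened as log2 (CPM + 0.5), so gaps in the CPM printed below can look larger or smaller. 28 were found; chance gives about 1 in 20 groups, and genes of 1 fish are not independent.

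NF-control female 1 was low among females for the vitellogenin share (45.8% against 65.4% to 74.5%), vtg1 (312931.5 CPM), vtg5 (42026.2 CPM), RPLP0 (3303.1 CPM), eef1a1l1 (11285.1 CPM), eef2b (7514 CPM), nots (954 CPM) and ELOVL5 (18.2 CPM), and high for f13b (1.26 CPM). NF-control female 3 was high among females for zgc:123278 (0.197 CPM) and FABP1 (0.985 CPM), both near the floor. All females together had 2 counts of zgc:123278 and 11 of FABP1.

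NF-control male 6 was low among males for HSD17B3 (6.9 CPM), aqp7 (8.16 CPM), ugt5a1 (3.19 CPM), TPGS2 (0.92 CPM) and GPAM (2.05 CPM). The same fish was high for fam20cl (0.613 CPM), foxa3 (39.4 CPM), cyp39a1 (6.29 CPM), nr1d4a (0.828 CPM) and fetub (19000 CPM against 2857 to 5142.3 CPM).

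NF-control male 4 was high among males for the number of genes above 1 TPM (14580), acsl1b (27.1 CPM) and acta2 (89.7 CPM), and low for wu:fj16a03 (1100.9 CPM). NF-control male 5 was high for PLTP (25.3 CPM), OF-control male 2 for RBP2 (380 CPM) and OF-control male 3 for IGF1 (91.4 CPM against 16.9 to 24.6 CPM).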

How the results depend on the processing

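Counts of genes higher and lower in males moved by over 1.5 times with NF-control fish alone (191 and 543), OF-control fish alone (1161 and 1555), library size alone (13979 and 307), and limma on log2(TPM + 0.1) (8196 and 1009) or log2(TPM + 1) (8037 and 1012); all 24 fish gave 3941 higher. With a replicate block they were 1681 and 2000. Same-numbered fish did not deviate together (correlations -0.211 to 0.138). The sources used here do not say whether the numbers pair fish. These correlations cannot decide it, since each sets 1 fish beside 1 other of the other sex and feed. DESeq2 called 23 genes for sex by feed and 11 for sex by training. The difference in genes above 1 TPM was 629 (exact permutation p = 0.08) after rescaling without vitellogenin. Leaving out 1 fish gave 1548 to 2189 genes higher and 2121 to 2843 lower, 0 to 1 call for sex by feed (1 without NF-control male 4 or without OF-control female 6), 0 to 0 for sex by training, and differences of 1788.7 to 2378.2 genes above 1 TPM, 3.98 to 5.53 points in the top-10 share and -71.2 to -64.1 points in the vitellogenin share. Of all 4812 calls, 1512 (31.4%) were lost when some 1 fish was left out, most without OF-control female 5 (1060). Among the calls of the naming rule it was 37 of 178 (20.8%), and among those examined for the text 16 of 113 (14.2%). The rule favoured large changes and genes were taken up with values known, so the choice itself favours lower shares. They are no separate evidence for the named genes. The 23 genes chosen after their values were seen are not among the 113. Library size alone turned the sign of AARS1 (0.34), BHLHE41 (0.10), ESR2 (0.85 and 0.15), GPER1 (0.59), IGF1 (0.63), PGRMC2 (0.25), RPS2 (0.10), SARS1 (0.16), VARS1 (0.09) and srebf2 (0.18), and of the medians of ER (0.41), cholesterol (0.61), ribosomal (0.08) and tRNA synthetase genes (0.49). All of these values were below 1.62, the median of all genes under library size alone. ESR2 (ENSDARG00000016454) turned on TPM (0.17 and 0.12). tfa turned with NF-control alone (-0.14) and in 3 of the 12 fits with 1 fish left out (-0.14 to 0.34). fetub turned with OF-control alone (-0.27), voom (-0.05), the replicate block (-0.10), library size without vitellogenin (-0.03) and in 4 of the 12 fits with 1 fish left out (-0.44 to 0.22). The cause of these changes was not tested. Fewer counts outside vitellogenin in females limit low genes there.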

Other observations

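Of 31 genes of the growth hormone and insulin-like growth factor axis 4 (12.9%) were higher and 1 (3.23%) lower in males. These shares were no larger than the 13.8% and 15.4% of all genes. IGFALS, the blood partner of the growth factor complex, was higher (0.85 ± 0.19, edgeR adjusted p = 0.005). CISH, an inhibitor of cytokine receptor signalling, was lower (-3.31 ± 0.64, adjusted p = 0.0022) with overlapping values. IGFBP2 (ENSDARG00000052470) was called (1.35 ± 0.44, adjusted p = 0.036) but lost without any 1 of 7 fish, as without OF-control female 5 (1.29, adjusted p = 0.083). The other gene annotated IGFBP2, ENSDARG00000031422, had overlapping values, 6.1 to 47.5 CPM in females and 22.5 to 50.5 CPM in males. IGF1 itself did not pass (-0.94 ± 0.46, adjusted p = 0.15, and 0.63 under library size alone), with OF-control male 3 at 91.4 CPM and the other males at 16.9 to 24.6 CPM, and passed without that fish (-1.42, adjusted p = 0.026).

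Of 37 clock genes 7 (18.9%) were higher and 3 (8.11%) lower in males, in all no larger a share than the 29.2% of all genes called. The activator BMAL1 was higher (1.80 ± 0.31, adjusted p = 0.0011), as was rorcb (2.62 ± 0.58, adjusted p = 0.0053), while nr1d4a was lower (-3.78 ± 0.93, adjusted p = 0.0093). cry3a was called (0.83 ± 0.24, adjusted p = 0.02) but not without NF-control male 5 (0.75, 0.051), OF-control female 5 (0.71, 0.067) or OF-control female 6 (0.71, 0.063). BHLHE41, a repressor, was called (-1.36 ± 0.45, adjusted p = 0.037) but not without any 1 of 7 fish, as without OF-control male 1 (-1.15, adjusted p = 0.089), and stood at 0.10 under library size alone. The hour at which each fish was killed is not given in the sources used here.

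Of 92 subunits of oxidative phosphorylation 14 (15.2%) were higher and 1 (1.09%) lower in males, beside 13.8% and 15.4% of all genes. The higher share was near that of all genes and the lower share was below it. UQCRQ of complex III was among the higher ones (0.79 ± 0.16, adjusted p = 0.0034). Of 41 genes of DNA replication and mitosis 2 (4.88%) were higher and 4 (9.76%) lower, below the 13.8% and 15.4% of all genes. The licensing inhibitor GMNN (-2.32 ± 0.22, adjusted p = 2.4e-05) and the cyclin CCND1 (-2.28 ± 0.28, adjusted p = 0.0001) were lower. The mitotic kinesin kif11 was higher (3.14 ± 0.67, adjusted p = 0.0041). Another mitotic kinesin, KIF23, went the other way, at 0.525 to 9.42 CPM in females and 0.0828 to 0.885 CPM in males, with overlap. The progestin receptor component PGRMC2 was lower in males (-1.35 ± 0.21, adjusted p = 0.00058, but 0.25 under library size alone) and PGRMC1 did not pass (adjusted p = 0.22). Of 24 egg envelope genes 2 were tested, and zp3d.2 had 2 counts in all females and 123 in all males, a ratio of 20.3 after scaling (exact 95% interval 5.51 to 170, counting error only).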
